A study of Ovis aries with 44 samples.

Results

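Callipyge lambs develop heavy loin and leg muscles only when the mutant allele comes from the sire and the dam's allele is normal, an inheritance called polar overdominance. The comparison described here took the semimembranosus, a leg muscle that enlarges in these animals, from 10 lambs killed at 30 d of age and set the callipyge genotype against the 3 genotypes that do not become muscular. The callipyge lambs were +/Cpat (mutant allele from the sire, n = 2). The other lambs were +/+ (normal, n = 2), Cmat/+ (mutant allele from the dam, n = 3) and C/C (mutant alleles from both parents, n = 3). All were untreated and had suckled their dams. The arrays of +/Cpat and +/+ belonged to an experiment on the paternal allele, and those of Cmat/+ and C/C were made for a further experiment and set against them. Genotype and array set therefore cannot be told apart in any contrast with Cmat/+ or C/C, and the contrast with +/+ is the 1 made within a set. The 10 arrays were chosen by the genotype and age in their labels, out of 22 arrays in the series. The other 12 arrays came from +/Cpat and +/+ lambs of 10, 20 and 80 d, with 2 lambs of each genotype at each age. RNA of whole muscle was hybridised to a bovine Affymetrix array, so sheep transcripts that differ from the cattle probes may be measured poorly. A level below is the authors' RMA value, a background-corrected and normalized log2 intensity of 1 probe set. A difference is the +/Cpat mean minus the average of the 3 other genotype means, on the same log2 scale. A probe set was called when limma gave it a Benjamini-Hochberg adjusted p under 0.1 over all 24016 probe sets.

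The mutation lies between DLK1 and MEG3 in an imprinted cluster. In such a cluster each gene is read from the copy of only 1 parent. DLK1, which encodes a transmembrane protein of the Notch ligand family, and RTL1, a gene derived from a retrotransposon, are read from the paternal copy, whereas MEG3 and MEG8, which make long non-coding RNAs, are read from the maternal copy. The mutation raises the genes of the chromosome that carries it. Both heterozygotes and the homozygote therefore carry altered expression of the cluster, while the enlarged muscle belongs to +/Cpat alone.

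The muscle fibre markers were high in every lamb. The mean level of 11 skeletal muscle fibre markers was between 12.18 and 12.38 in all 10 lambs, with ACTA1, the skeletal actin, averaging 14.74 in callipyge lambs and 14.74 in the others. Array medians ran from 5.40 to 5.45, and the lowest correlation between any 2 of the 10 arrays was 0.982. Of the red blood cell markers none was called, but all 9 measured members lay below 0, with a median difference of -0.178. Their mean level was 4.97 to 5.02 in the 2 callipyge lambs and 5.06 to 5.44 in the 8 others, and the part of this in the results below was not tested. In whole muscle, fewer cells of a type and less RNA per cell cannot be told apart. With 2 callipyge lambs the precision is low, and each lamb is 1 animal.

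At 30 d, 20 probe sets were called, 16 higher and 4 lower in callipyge muscle. These were 0.0833% of the probe sets tested, 0.0666% higher and 0.0167% lower. At an unadjusted p under 0.05 there were 1679, of which 931 were higher and 748 lower. Of the 20, 15 had a gene symbol and stood for 13 genes. All 16 called higher had both callipyge lambs above every one of the 8 others, as did 738 of all probe sets (3.07%). Among the 4 called lower, 2 had both callipyge lambs below the 8 others, against 913 of all probe sets (3.8%). An average difference can rest on 1 genotype, so a difference from each of the 3 genotypes was also asked for. Only UCHL1 and PARK7, 0.00833% of the probe sets, passed that stricter test, with 332 at an unadjusted p under 0.05. Within the array set of the callipyge lambs, 18 of the 20 called probe sets had the same direction against +/+ alone (80.9% of all probe sets did), with both callipyge lambs outside both +/+ lambs (35.1% of all) and an unadjusted p under 0.05, and 3 were called (0.0167% of all probe sets were, in either direction). These 3 were UCHL1, PARK7 and CST3, and the 2 exceptions in direction were the MEG3 probe sets. The contrast with +/+ is part of the average difference, and the separation from the 8 others uses the same values that gave the calls. The shares of called probe sets in both therefore describe the calls and do not test them.

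UCHL1, a deubiquitinating enzyme best known from neurons, had the largest called difference. Its level in callipyge lambs was 6.89 and 7.75. It was 4.81 and 4.72 in +/+ lambs, 5.15, 4.87 and 4.91 in Cmat/+ lambs, and 5.26, 4.89 and 5.09 in C/C lambs. The 2 callipyge lambs stood apart by a gap of 1.63, and the 8 others lay within 4.72 to 5.26. The difference was 2.38 ± 0.187 (SE, n = 10 lambs), or 5.19-fold, with an adjusted p of 0.00129 by limma. The study's own quantitative PCR of this muscle, at a single age, found no significant effect of genotype on UCHL1. UCHL1 also stands in the list of Schwann cell and nerve markers, of which it was the 1 member called. The 9 other members measured, among them SOX10 and MBP, had differences from -0.26 to 0.08.

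PARK7, also named DJ-1, encodes a redox-responsive protein that is linked to inherited Parkinson's disease. Its level was 12.26 and 12.19 in callipyge lambs and between 10.78 and 11.16 in the 8 others, so the groups were separated by 1.03. The difference was 1.19 ± 0.0988 (SE, n = 10 lambs), 2.29-fold, with an adjusted p of 0.00129 by limma. Callipyge lambs exceeded +/+ by 1.33, Cmat/+ by 1.10 and C/C by 1.14, with adjusted p-values of 0.00298, 0.00592 and 0.00410 in these contrasts. The test of the difference from each genotype gave an adjusted p of 0.0118 for both PARK7 and UCHL1. Leaving out a +/Cpat or +/+ lamb leaves 1 lamb in that group. In the 10 fits that left out 1 lamb, the average difference of PARK7 stayed between 1.15 and 1.23. The stricter call was not kept in all of them. PARK7 lost it in 4 of the 10 fits that left out 1 lamb (adjusted p = 0.303 without +/Cpat replicate 1, 0.134 without +/Cpat replicate 2, 0.124 without +/+ replicate 2 and 0.102 without Cmat/+ replicate 1, by limma). UCHL1 lost it in 1, without +/+ replicate 2 (adjusted p = 0.124 by limma).

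METTL21E encodes a methyltransferase-like protein found in skeletal muscle, and it was measured by 2 probe sets that gave nearly the same result. On the dimmer probe set the callipyge lambs were at 9.71 and 9.62. The levels were 7.98 and 7.13 in +/+, 7.65, 7.28 and 7.34 in Cmat/+, and 6.42, 7.07 and 7.67 in C/C. No lamb of another genotype came within 1.6 of the lower callipyge lamb. The difference was 2.32 ± 0.277 (SE), 5-fold, with an adjusted p of 0.0187, and the brighter probe set gave 2.32 ± 0.317 with an adjusted p of 0.0378, both by limma.

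TCEA3, a transcription elongation factor of the TFIIS family, was lower in callipyge muscle. Its level was 9.43 and 9.49 in callipyge lambs and between 10.26 and 10.57 in the 8 others. The groups were apart by 0.77. The difference was -0.95 ± 0.0997 (SE), 1.93-fold lower, with an adjusted p of 0.00717 by limma. The study's quantitative PCR of this muscle over several ages found no significant main effect of genotype on TCEA3. This held for +/Cpat with +/+, where genotype and age interacted, and in its maternal allele experiment. A probe set without a gene symbol was the other one that lay below every other lamb, at 9.34 and 9.32 against 10.12 to 10.44.

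**Figure D1:**
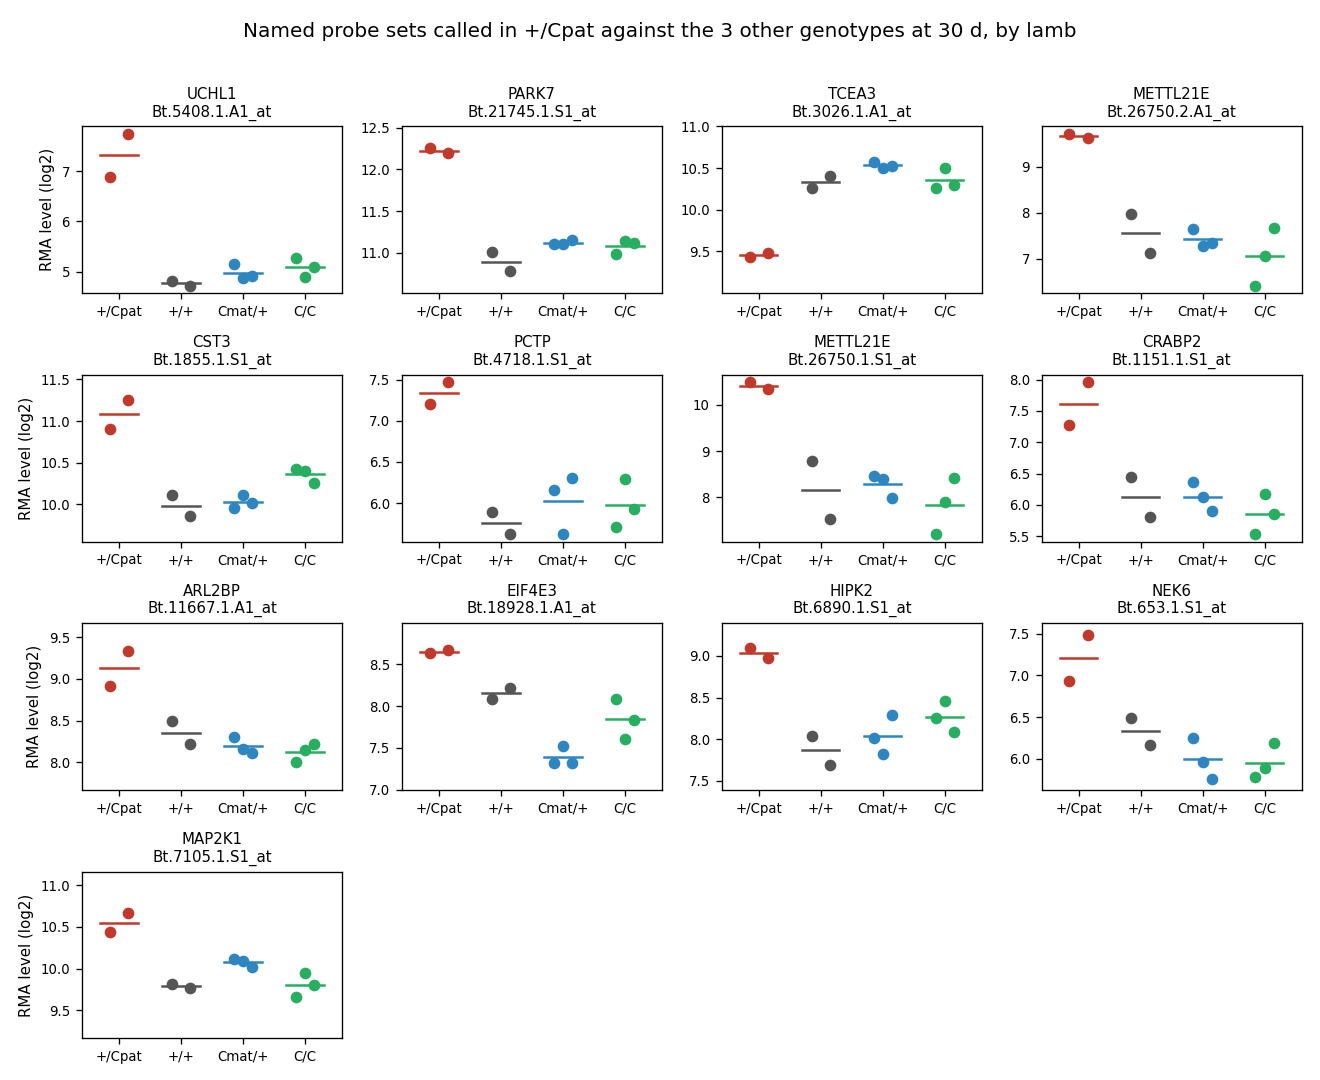
RMA level (log2, each panel with its own axis) of the 13 called probe sets that have a gene symbol, without those of MEG3, in each lamb at 30 d; points are lambs, horizontal bars are genotype means. In every panel the 2 callipyge (+/Cpat) lambs lie outside the 8 lambs of the other genotypes, below them for TCEA3 and above them for the rest.

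Proteins that carry lipids or retinoids and a secreted protease inhibitor were among the other genes that rose. PCTP, the phosphatidylcholine transfer protein, was at 7.21 and 7.47 in callipyge lambs and at 5.62 to 6.30 in the others, a difference of 1.42 ± 0.190 (SE; adjusted p = 0.0365 by limma). CRABP2, which carries retinoic acid into the nucleus, was at 7.28 and 7.96 against 5.53 to 6.44, a difference of 1.58 ± 0.222 (adjusted p = 0.0418 by limma). CST3, the secreted cysteine protease inhibitor cystatin C, was at 10.91 and 11.25 in callipyge lambs. The C/C lambs came closest to it, at 10.26 to 10.42, while +/+ and Cmat/+ lambs were at 9.86 to 10.11. The difference for CST3 was 0.96 ± 0.119 (adjusted p = 0.0202 by limma).

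The other called genes were HIPK2, NEK6, MAP2K1, ARL2BP and EIF4E3. HIPK2, a nuclear serine/threonine kinase, was at 9.09 and 8.97 in callipyge lambs and at 7.69 to 8.46 in the others, and the difference was 0.97 ± 0.147 (SE; adjusted p = 0.0581 by limma). NEK6, a kinase known from mitosis, differed by 1.12 ± 0.176 (adjusted p = 0.0724), with callipyge lambs at 6.93 and 7.49 and the others at 5.76 to 6.49. MAP2K1, the kinase that activates ERK, differed by 0.66 ± 0.107 (adjusted p = 0.0872), with callipyge lambs at 10.44 and 10.66 and the others at 9.66 to 10.11. ARL2BP, a partner of the small GTPase ARL2, differed by 0.90 ± 0.129 (adjusted p = 0.0458). EIF4E3, a member of the cap-binding family, differed by 0.86 ± 0.127 (adjusted p = 0.0553). For EIF4E3 the +/+ lambs, at 8.08 and 8.22, were nearest to the callipyge lambs, at 8.64 and 8.67, and the Cmat/+ lambs were farthest, at 7.32 to 7.53.

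How far the calls of the average difference rest on single lambs was examined by leaving out each of the 10 in turn. UCHL1, PARK7 and the dimmer MEG3 probe set were called for that difference in all 10 fits. TCEA3 lost its call without +/Cpat replicate 1, and CST3 without +/Cpat replicate 2. Both METTL21E probe sets, PCTP, CRABP2 and 2 probe sets without a symbol lost it when either callipyge lamb was left out, which leaves 1 lamb in that group, and ARL2BP also without +/+ replicate 2. HIPK2 and the brighter MEG3 probe set each lost it in 5 of the 10 fits, EIF4E3 and NEK6 in 6, MAP2K1 in 7 and the last 3 probe sets without a symbol in 6, 7 and 9, in each case both without +/Cpat replicate 1 and without replicate 2. On the MAS5 intensities of the same arrays, a different reading of the same images, limma called 0 probe sets with 1303 at an unadjusted p under 0.05. All 20 kept their direction there, 19 of them with an unadjusted p under 0.05, and 17 had both callipyge lambs outside the 8 others. UCHL1 differed by 2.21 and PARK7 by 1.24 on that scale.

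The 4 probe sets without a symbol that rose had differences of 1.20, 1.06, 0.71 and 0.64. Just inside the threshold were MAP2K1, with an adjusted p of 0.0872, and 1 probe set without a symbol, with 0.0881. Just outside were NDRG2 (difference 0.99), NUDT4 (1.03) and DNTTIP1 (1.47), all with an adjusted p of 0.1 once rounded. SLC22A3, an organic cation transporter, had a larger difference than any called probe set, 2.90 ± 0.530, but its level in the 8 others ran from 3.80 to 5.92 and its adjusted p was 0.15.

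Not every called probe set followed the muscular phenotype. MEG3, the maternally read non-coding RNA of the imprinted cluster, was called lower on 2 probe sets, and in both, Cmat/+ and C/C were far above callipyge and +/+ was not. On the brighter probe set the level was 9.63 and 9.65 in +/Cpat, 7.62 and 6.94 in +/+, 12.50, 12.30 and 12.44 in Cmat/+, and 12.14, 12.27 and 12.31 in C/C. On that probe set callipyge lambs thus stood between normal lambs, which they exceeded by 2.36 ± 0.190 (SE), and both genotypes that carry the maternal mutation. On the dimmer of the 2 they exceeded normal lambs by 0.44 ± 0.159, which was not called (adjusted p = 0.931 by limma). The test among the 3 other genotypes called 3 probe sets (0.0125%), and all 3 were MEG3 probe sets. The 1 of these that was not called for the average difference exceeded normal lambs by 0.18 ± 0.215 in callipyge lambs, also not called. A probe set without a symbol was alike in that 1 genotype was near callipyge, with callipyge lambs at 11.22 and 11.39, +/+ lambs at 11.02 and 10.65, and the remaining 6 lambs at 9.35 to 10.07.

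DLK1, on the brighter of its 2 probe sets, was at 11.88 and 11.40 in callipyge lambs. It was 9.39 and 8.47 in +/+, 9.56, 9.21 and 11.02 in Cmat/+, and 10.44, 9.70 and 10.39 in C/C. Both callipyge lambs were above the 8 others, of which 1 Cmat/+ lamb came within 0.38 of the lower callipyge lamb. The difference of 1.96 ± 0.403 (SE, n = 10 lambs) was not called, with an adjusted p of 0.207 by limma. Against +/+ alone the difference in these lambs was 2.71 ± 0.508, also not called (adjusted p = 0.302 by limma). In the lambs of other ages +/Cpat exceeded +/+ by 2.22 and DLK1 was called (adjusted p = 1.71e-06 by limma). MAPK6, an atypical MAP kinase, had C/C lambs at 9.15, 8.13 and 9.29 on the probe set of the study's quantitative PCR list, level with callipyge lambs at 8.48 and 9.09, and the difference of 0.83 was not called. RLIM, a ubiquitin ligase, had low levels in Cmat/+ lambs (4.57, 6.70 and 5.50) and levels from 8.16 to 8.42 in the 7 lambs of the other genotypes. It was called neither for the average difference nor in the test among the 3 other genotypes.

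**Figure D2:**
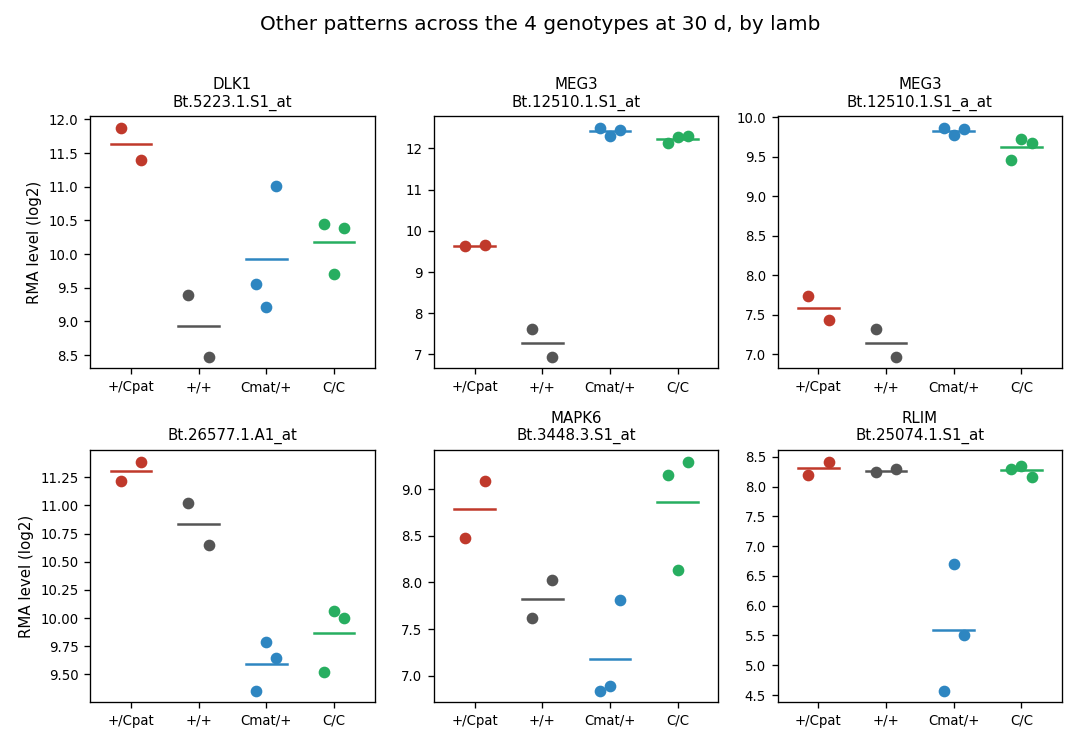
RMA level (log2, each panel with its own axis) of 6 probe sets in each lamb at 30 d; points are lambs and horizontal bars are genotype means. In MEG3 the callipyge (+/Cpat) lambs lie below Cmat/+ and C/C and above or level with +/+; in RLIM the Cmat/+ lambs are lowest and the other 3 genotypes are between 8.16 and 8.42.

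Each contrast with 1 genotype was also looked at alone. Against +/+, 4 probe sets were called (0.0167%), against Cmat/+ 30 (0.125%) and against C/C 21 (0.0874%). These contrasts share the 2 callipyge lambs. The +/+ group had 2 lambs and the other groups 3, so the numbers called are not measured with equal precision.

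The 12 lambs of other ages shared no animal with those of 30 d, and they allowed the direction of the 20 calls to be checked against +/+. They included no Cmat/+ or C/C lambs, so the differences from those genotypes could not be checked in them. In them +/Cpat minus +/+ was averaged over 10, 20 and 80 d, and 414 of all probe sets (1.72%) were called, 197 higher (0.82%) and 217 lower (0.904%). Of the 20 probe sets called at 30 d, 17 had the same direction in these lambs (51% of all probe sets did), 16 of them at each of the 3 ages, and 12 were called in the same direction (1.49% of all probe sets were). The 12 included PARK7, with 1.04 ± 0.0989 (SE) at the other ages and an adjusted p of 0.000414 by limma, and UCHL1, with 1.06 ± 0.263 and an adjusted p of 0.0919. Both METTL21E probe sets, PCTP, CRABP2, ARL2BP, CST3, NEK6 and TCEA3 were also among them. The 3 that ran the other way were both MEG3 probe sets and EIF4E3. For MEG3 the normal lambs are the low genotype, and +/Cpat exceeded them by 2.76 at the other ages on the brighter probe set. EIF4E3 had a difference of -0.19 ± 0.106 at the other ages, not called (adjusted p = 0.57). A direct test of the 30 d difference (+/Cpat minus +/+) against that of the other ages called 0 probe sets by limma, with 603 at an unadjusted p under 0.05.

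**Figure D3:**
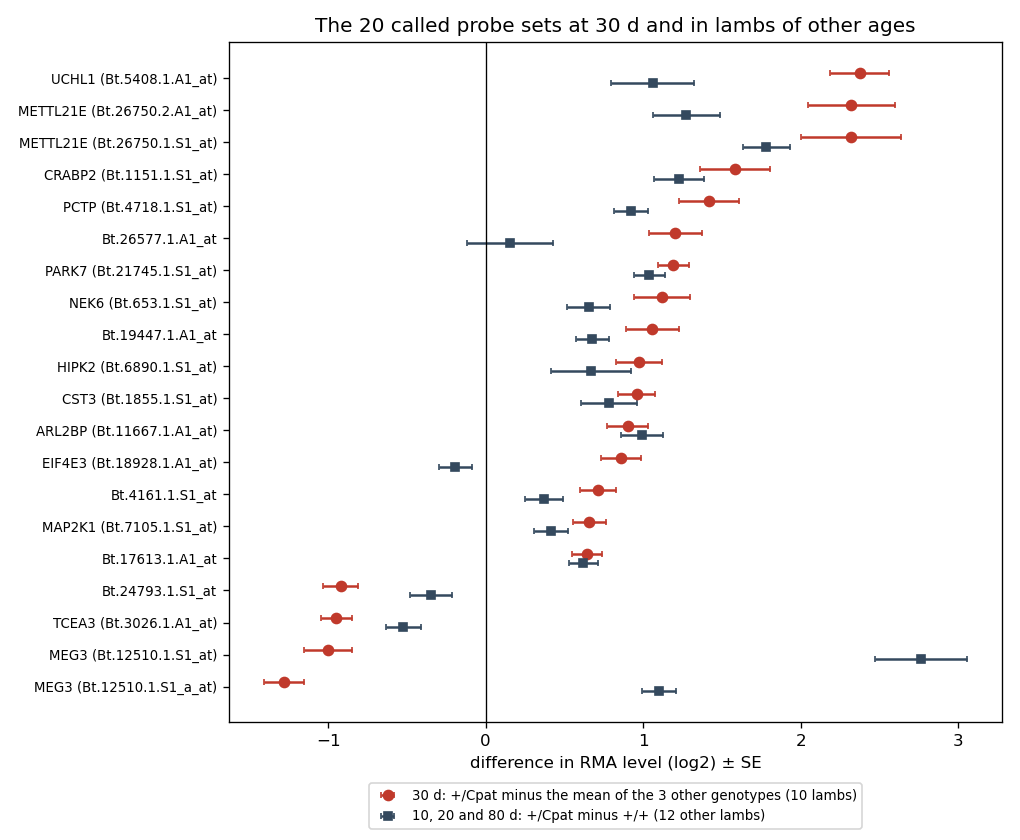
Difference in RMA level (log2) ± SE of the 20 called probe sets, in the 10 lambs of 30 d (circles, +/Cpat minus the mean of the 3 other genotypes) and in 12 other lambs of 10, 20 and 80 d (squares, +/Cpat minus +/+). Of the 20, 17 lie on the same side of 0 in both; the exceptions are the MEG3 probe sets and EIF4E3.

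The quantitative PCR list holds 27 probe sets that the study kept from a larger number assayed. They were chosen mainly on arrays that included the 30 d lambs of +/Cpat and +/+. HIPK2 and COQ10A were already known from earlier studies, and MEG8 came from the comparison of Cmat/+ with +/+. The probe sets were then kept for their result in an assay that included those animals, so they are not independent evidence of direction. UCHL1, TCEA3, ECH1 and MYL3 were assayed in the same muscle but showed no significant main effect of genotype there. They were not kept and are not in the list. Of these, UCHL1, ECH1 and MYL3 were assayed at a single age, described as post-hypertrophy. At 30 d against the 3 other genotypes 5 of the 27 were called (0.0833% of all probe sets were), namely PARK7, HIPK2 and both METTL21E probe sets (higher) and MEG3 (lower). Of the rest, 8 had both callipyge lambs above the 8 others (3.07% of all probe sets did) and 3 had both below (3.8%). APOD, a lipid-binding apolipoprotein, was at 10.83 and 10.58 against 9.09 to 10.17 and differed by 1.09 (adjusted p = 0.117 by limma). PDE4D, a phosphodiesterase that degrades cAMP, was at 11.55 and 11.88 against 9.30 to 10.98 and differed by 1.32 (adjusted p = 0.244). TXNIP, an inhibitor of thioredoxin, was at 11.65 in both callipyge lambs and at 11.24 to 12.04 in the others, a difference of -0.09.

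Genes of the ribosome lay mostly below 0 in callipyge muscle, although none was called. Of 49 measured genes of the ribosome and translation list, 44 were below 0 and the median difference was -0.285, against -0.0193 over all 9206 named genes, of which 54.4% were below 0. Both callipyge lambs lay below all 8 others in 28 of the 49 (57.1%), against 4.37% of the named genes. RPL11 of the large subunit was at 10.84 and 10.60 in callipyge lambs, 11.04 and 11.09 in +/+, 11.28 to 11.47 in Cmat/+ and 11.23 to 11.47 in C/C, a difference of -0.54 ± 0.108 (adjusted p = 0.199 by limma). RPL22 was at 10.97 and 10.93 against 11.30 to 11.47 (-0.45, adjusted p = 0.207). The +/+ lambs, whose arrays belong to the same set as the callipyge arrays, were the nearest of the 3 genotypes. The median difference was -0.157 against them, -0.335 against Cmat/+ and -0.337 against C/C. Within that set 43 of the 49 genes were below 0, and 31 had both callipyge lambs below both +/+ lambs (63.3%, against 21% of all probe sets). The list also differed between the sets without callipyge lambs, with a median of -0.119 for +/+ minus the mean of Cmat/+ and C/C, against -0.00419 over all probe sets. Genotype and array set cannot be told apart in that difference or in the larger differences from Cmat/+ and C/C. At the other ages the median of these genes was -0.0283 and none was called. The list was then divided by symbol, a choice made after its values were seen and therefore given without a test. Of 35 ribosomal protein genes 34 were below 0, with a median of -0.337 and 27 with both callipyge lambs below the others. Of 14 translation factors 10 were below 0, with a median of -0.0912, and EEF1G, an elongation factor subunit, was the 1 gene of the list above all 8 others, at 13.03 and 12.98 against 12.73 to 12.97.

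**Figure D4:**
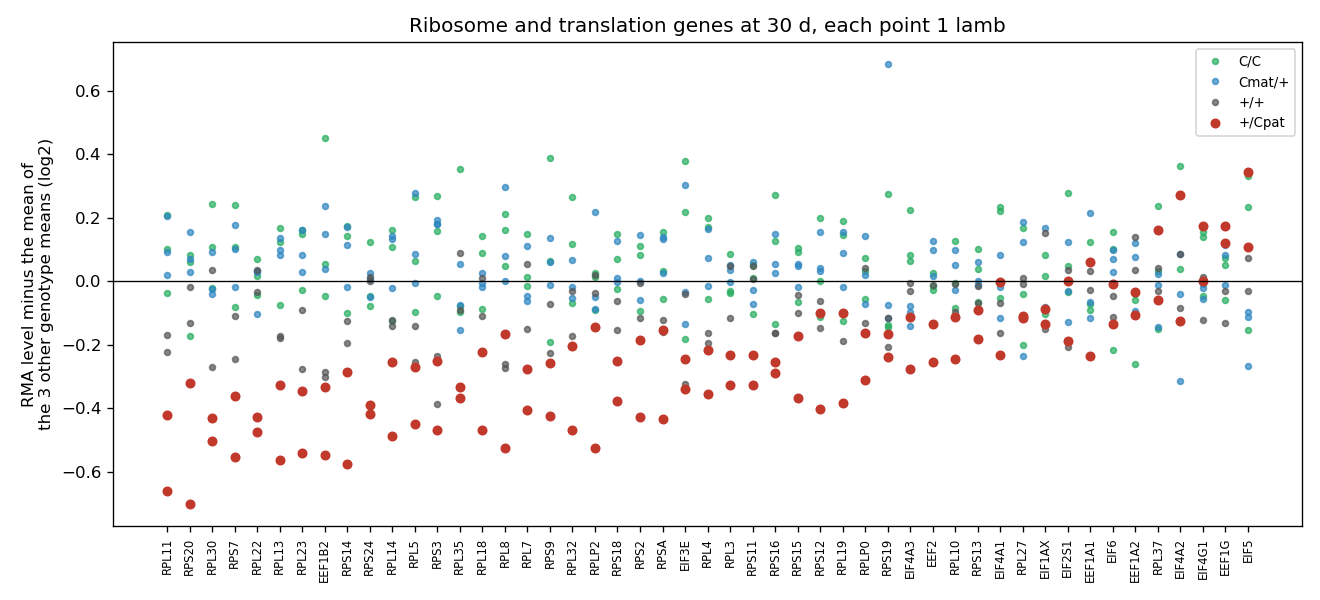
RMA level of each of 49 ribosome and translation genes in each lamb at 30 d, minus the mean of the 3 other genotype means (log2); genes are ordered by difference and each point is 1 lamb. The callipyge (+/Cpat) points are lowest for most ribosomal protein genes, and the +/+ points are the next lowest for many.

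Genes of fatty acid uptake and oxidation also lay mostly below 0, with 31 of 37 below 0, a median difference of -0.142 and 0 called. Of these, 6 had both callipyge lambs below the 8 others (16.2%, against 4.37% of named genes). ECH1, an enzyme of the oxidation of unsaturated fatty acids, was at 10.22 and 10.00 against 10.40 to 10.72, a difference of -0.47 (adjusted p = 0.244 by limma). LPL, the lipase that releases fatty acids from circulating triglyceride, was at 7.22 and 7.13 against 7.04 to 8.58, and 1 C/C lamb was below both. Against +/+ alone the list had a median of -0.137. At the other ages it had a median of -0.308, with 12 of 37 genes called lower (1.52% of named genes were) and 1 called higher (1.21%). In the electron transport chain and ATP synthase list 53 of 75 were below 0 with a median of -0.0995 and 0 called, and 28 genes of the TCA cycle had a median of -0.102. The summary level of the transport chain list overlapped between genotypes, at 0.06 and -0.21 in the callipyge lambs and from -0.16 to 0.17 in the others, and its median difference was 0.0561 without +/Cpat replicate 2.

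No contractile gene was called at 30 d. Among 14 slow-fibre genes 12 were below 0 with a median of -0.0902 (-0.209 against +/+ alone) and 0 called. At the other ages, against +/+, the median was -0.612 and 7 of 14 were called lower (1.52% of named genes were). MYL3, the slow ventricular myosin light chain, was at 11.30 and 10.61 in callipyge lambs, with +/+ lambs at 12.16 and 12.33 and C/C lambs from 10.97 to 11.78. Of 11 fast-fibre genes 7 were above 0, with a median of 0.103 that turned to -0.113 on MAS5 values. Glycolysis and glycogen genes were 23 of 35 above 0 with a median of 0.0916 and 0 called. Their summary level overlapped between genotypes, at 0.136 and 0.0872 in the callipyge lambs and from -0.148 to 0.0994 in the others. PFKM, the muscle phosphofructokinase, was at 12.69 and 12.89 against 12.26 to 12.63.

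In the MAP kinase list 16 of 20 genes were above 0, with a median of 0.192 (0.227 against +/+ alone) and MAP2K1 as the 1 gene called. The summary level of this list overlapped between genotypes, at 0.137 and 0.172 in the callipyge lambs and from -0.0751 to 0.2 in the others. The highest of all was a C/C lamb. Both callipyge lambs lay above the 8 others in 5 of the 20 (25%, against 3.58% of named genes), which were MAP2K1, RPS6KA3, MAPK6, MAP2K4 and DUSP10, named here after their values were seen. The MAPK6 probe set counted there was its brightest (difference 0.40), whereas that of the quantitative PCR list had C/C lambs level with callipyge. RPS6KA3, a ribosomal S6 kinase downstream of ERK, was at 9.46 and 9.85 against 8.04 to 9.01, a difference of 1.03 (adjusted p = 0.186 by limma). The study's quantitative PCR found no significant main effect of genotype on RPS6KA3 in this muscle, where genotype and age interacted. In the cAMP list 16 of 26 genes were above 0 with a median of 0.0456 and 0 called. PDE4B was at 7.84 and 7.86 against 6.47 to 7.46. Of the 27 lists 6 had a called member, and beside MAP2K1 these members were PARK7, HIPK2, UCHL1 and MEG3.

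**Figure D5:**
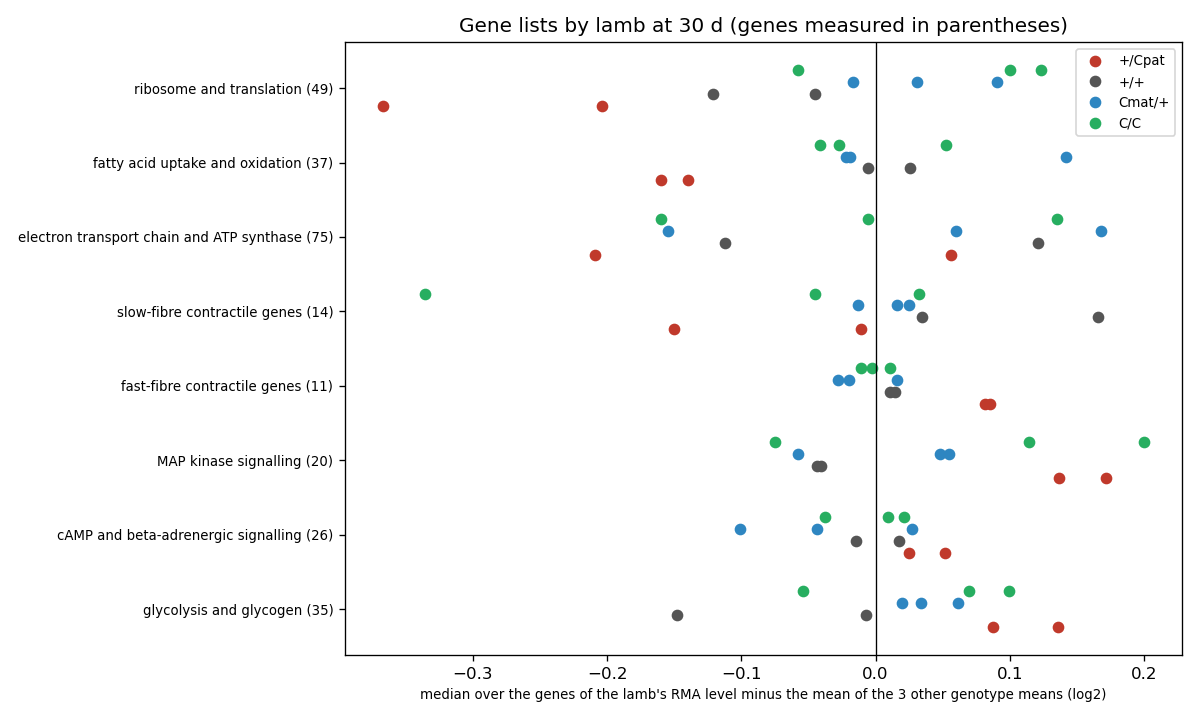
Summary of 8 gene lists by lamb at 30 d: for each lamb, the median over the genes measured of its RMA level minus the mean of the 3 other genotype means (log2). Both callipyge (+/Cpat) lambs are lowest for the ribosome list, at -0.204 and -0.367, and for the fatty acid list, and they are highest for the fast-fibre list, whose median turns negative on MAS5 values.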

How the data were processed

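Semimembranosus RNA was hybridised to bovine Affymetrix arrays. The authors read each image 2 ways, and both are in the deposited table: MAS5 intensities (linear, unscaled) and RMA log2 values. RMA software versions are not given in the sources used here. Of 24128 probe sets 112 controls were left out; 13292 were named by the platform annotation (1 symbol), 73 from the study, and 10565 were unlisted. Groups came from the genotype in the labels. A mean per genotype was fitted to the 10 RMA columns of 30 d with limma 3.58.1 (R 4.3.3), lmFit and eBayes, two-sided, with Benjamini-Hochberg adjustment and a threshold of 0.1. The difference from each genotype took the largest of 3 p-values; a moderated F-test compared the 3 others. A second fit used 12 lambs of other ages. Members, lists and tests were chosen with earlier results of these data known. Lists were described by counts and medians, 1 probe set (the brightest) per gene. Named probe sets were the called ones, the smallest p of each list, the imprinted cluster, the probe sets kept by the study after quantitative PCR and those with the smallest F-test p. The fits were tested on simulated data. Alternatives were MAS5 values (trimmed mean 500, 2% trimmed, log2 of value plus 16), renormalization, an intensity filter, other priors, array weights, a threshold of 0.05, all 22 arrays, a replicate block, and leaving out each array. P-values measure the spread between lambs.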

Additional observations from a re-analysis of the deposited data

Results flagged for a closer look

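EIF4E3 had a difference of opposite sign at 30 d and at 10 and 80 d, in different lambs, and this change with age was not called. At 30 d both callipyge lambs were above both +/+ lambs, by 0.50 on average, whereas both were below both +/+ lambs at 10 d, by a difference of -0.43, and at 80 d, by a difference of -0.0897. It was picked out because the 2 genotypes did not overlap at these ages and their order at 30 d was opposite to that at 10 and 80 d. At 80 d the levels were close, at 7.65 and 7.66 in callipyge lambs and 7.70 and 7.80 in +/+ lambs. The share of all probe sets with such a pattern was not counted. In the limma test of the 30 d difference against the mean of the 3 other ages, its adjusted p was 1 after rounding, and no pairwise test of 30 d against 10 or 80 d was run.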

How the results depend on the processing

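Groups of 2 and 3 lambs limit what could be detected. All 20 called probe sets kept their direction under the 13 alternative settings and in the 10 fits that left out a lamb, but the numbers called changed. These fits reuse the lambs in which the 20 were picked, so the kept direction is not independent evidence. On MAS5 values limma called 0 for the average difference, 0 for the difference from each genotype (219 at an unadjusted p under 0.05), 0 against +/+ (1266 unadjusted), 1 against Cmat/+, 1 against C/C and 13 at the other ages, and 0 of the 30 d calls were shared with the other ages; quantile normalized MAS5 values gave the same except 12 at the other ages, with 1315, 221 and 1255 at an unadjusted p under 0.05 for the counts of 0. Without empirical Bayes the counts were 3, 0 (368 unadjusted), 2, 6, 4 and 37, and 1 was shared. At an adjusted p under 0.05 there were 12, 15 against Cmat/+, 227 at the other ages and 7 shared. With all 22 arrays in 1 fit there were 34, 4 against each, 11 against +/+, 48 against Cmat/+, 8 among the 3 other genotypes and 22 shared. With array weights there were 204, 4 against each, 22 against +/+, 125 against Cmat/+, 7 among the others and 54 shared. Against Cmat/+ and C/C only there were 36. The other ages gave 117 without the 10 d lambs, 711 without the 20 d lambs and 14 without the 80 d lambs. Same-numbered lambs of different genotypes did not deviate together (13 pairs, correlations from -0.259 to 0.197), so the numbers do not pair the lambs; with the replicate block there were 8 calls, 0 against each (418 unadjusted), 5 against C/C and 6 shared.

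Leaving out 1 lamb at a time gave 5 to 36 calls (5 without +/Cpat replicate 1, 11 without +/Cpat replicate 2, 13 without +/+ replicate 2 or C/C replicate 3, 36 without Cmat/+ replicate 3), 0 to 3 against each genotype (0 without +/+ replicate 2, with 170 unadjusted, and 1 without +/Cpat replicate 1 or Cmat/+ replicate 1), 3 to 11 against +/+, 5 to 196 against Cmat/+ (196 without Cmat/+ replicate 3), 8 to 20 against C/C, 2 to 7 among the 3 others, 3 to 21 shared with the other ages, and 167 to 1059 at the other ages (1059 without 20 d +/Cpat replicate 2). Both callipyge lambs above all others, with 1 lamb left out, held for 824 to 2390 probe sets and below for 1000 to 3203; fewer lambs overlap less by construction. The median of the ribosome list stayed between -0.367 and -0.204 in these fits, and between -0.369 and -0.254 under other scalings, with 24 to 25 of its genes below all 8 others. The fast-fibre median was -0.113 on MAS5 values, so its sign depends on the image reading, and the cAMP and slow-fibre medians were 0.127 and -0.244 there. The median of the difference over all probe sets stayed between -0.04 and -0.00554 under the scalings tried. The cause of these changes was not tested.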
